A study of Mus musculus with 6 samples.

Results

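The nuclear genes for the subunits of the mitochondrial respiratory chain and ATP synthase were examined in hypothalamus tissue of aged and young mice. They were chosen by gene symbol alone, 88 of the 18228 genes in the deposited table. The symbols were Ndufa, Ndufb, Ndufc, Ndufs or Ndufv with a number, Sdha to Sdhd, Uqcr, Cyc1, Cox4 to Cox8 and Atp5. This rule left out Ndufab1, another subunit gene of complex I, which was counted among the related genes below. By complex, 39 of the 88 belong to complex I, 4 to complex II, 9 to complex III, 19 to complex IV and 17 to complex V. Ndufa4 and Ndufa4l2 carry complex I names but were counted with complex IV. The protein of Ndufa4 acts there, and Ndufa4l2 was placed with it only as its relative. The aged mice were 22 months old and the young mice 12 weeks old, and 3 of the 5 mice of each age that went through a behavioural experiment were sequenced. The labels give no strain, sex, genotype or drug treatment for either group. The 4 Y-linked genes examined summed to 184 to 203 CPM (read counts scaled to a common library size) in the aged libraries. In the young ones they summed to 1.38 to 1.88 CPM. Age and sex therefore cannot be told apart in these samples for any member, whether X-linked or not. Each library was one mouse as far as the labels tell, and p-values measure only the spread between these samples.

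The respiratory chain passes electrons from NADH (at complex I) and succinate (at complex II) through ubiquinone, complex III and cytochrome c to complex IV, where oxygen is reduced. Complexes I, III and IV pump protons across the inner mitochondrial membrane, and complex V, the ATP synthase, uses their return flow to make ATP. Complexes I, III, IV and V are mosaics: a few core subunits are encoded by mitochondrial DNA. The others, with the whole of complex II, are encoded by nuclear genes such as those described here. Neurons draw most of their ATP from this pathway. NRF1, the ETS factor GABP and YY1 are transcription factors known to bind the promoters of many of these genes.

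The promoter windows of the 5 members that were called higher in the aged mice (values below) are printed to show the sequence from which their transcripts start. Each window runs 5′ to 3′ on the gene's own strand, from 250 bases before to 50 bases after the transcription start in RefSeq (build GRCm38.p6), and all 5 genes lie on the minus strand. The window of Uqcrh is chr4:116075021-116075320, that of Atp5l chr9:44920693-44920992, that of Ndufa6 chr15:82354242-82354541, that of Ndufb8 chr19:44555393-44555692 and that of Ndufa1 chrX:37191189-37191488. Capitals mark the letters CCGGAAG (the core bound by ETS factors) in Uqcrh and Atp5l and, in Ndufa6, the NRF1 letters, which are GCGCA, any 1 base, then GCGC; either strand counts.
Uqcrh: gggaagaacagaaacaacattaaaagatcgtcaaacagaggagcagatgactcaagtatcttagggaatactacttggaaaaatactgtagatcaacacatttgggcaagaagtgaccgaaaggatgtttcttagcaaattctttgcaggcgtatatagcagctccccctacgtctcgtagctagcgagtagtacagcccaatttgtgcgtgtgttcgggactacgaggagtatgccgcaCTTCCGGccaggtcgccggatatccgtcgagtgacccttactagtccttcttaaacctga
Atp5l: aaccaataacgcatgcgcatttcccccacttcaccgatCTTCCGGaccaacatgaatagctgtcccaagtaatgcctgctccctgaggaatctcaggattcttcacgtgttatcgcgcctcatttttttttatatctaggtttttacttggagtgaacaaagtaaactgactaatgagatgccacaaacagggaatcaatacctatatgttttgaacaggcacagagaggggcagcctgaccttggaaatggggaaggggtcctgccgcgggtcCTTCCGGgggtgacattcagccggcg
Ndufa6: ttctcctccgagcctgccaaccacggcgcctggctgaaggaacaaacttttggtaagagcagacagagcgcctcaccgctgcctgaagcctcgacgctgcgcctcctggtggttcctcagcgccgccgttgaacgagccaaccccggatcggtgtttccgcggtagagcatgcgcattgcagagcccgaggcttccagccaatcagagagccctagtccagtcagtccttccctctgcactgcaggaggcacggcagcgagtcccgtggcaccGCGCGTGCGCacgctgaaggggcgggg
Ndufb8: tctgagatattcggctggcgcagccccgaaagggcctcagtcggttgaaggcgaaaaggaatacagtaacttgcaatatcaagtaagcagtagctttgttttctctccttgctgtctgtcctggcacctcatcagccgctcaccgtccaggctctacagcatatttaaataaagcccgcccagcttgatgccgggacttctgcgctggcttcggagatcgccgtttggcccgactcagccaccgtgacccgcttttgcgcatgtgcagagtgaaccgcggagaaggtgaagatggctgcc
Ndufa1: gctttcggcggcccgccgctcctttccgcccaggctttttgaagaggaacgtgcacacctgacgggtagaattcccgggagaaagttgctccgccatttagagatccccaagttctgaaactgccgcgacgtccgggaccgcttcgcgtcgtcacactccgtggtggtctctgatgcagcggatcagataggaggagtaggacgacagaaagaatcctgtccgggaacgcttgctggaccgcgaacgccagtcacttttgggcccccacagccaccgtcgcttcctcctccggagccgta
The windows of Ndufb8 and Ndufa1 held neither run of letters. RefSeq windows were matched by symbol for 70 of the 88 members, which gave 75 windows. The NRF1 letters stood in 18 of these 75 windows (24.0%), against 4.60% of all 32851 windows of the same length and 6.38% of the 21263 windows of protein-coding genes. The letters CCGGAAG were found in 17 member windows (22.7%), against 8.86% of all windows and 11.6% of those of protein-coding genes. A YY1 run, AAGATGGCG, was in 7 member windows (9.33%, against 1.40% and 1.83%), and TATAAA in 9 (12.0%, against 13.6% and 12.6%). Both strands were searched, and none of these runs contains another. Among the members tested below, the 17 with the NRF1 letters had a median log2 fold change of 0.11 and the 53 without them one of 0.11. A match is a description of the letters and not of binding.

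As a group the members were slightly more abundant in the aged mice. Summed over all 88 genes, the 3 aged libraries held 11048, 11404 and 11017 CPM and the 3 young libraries 9806, 10571 and 10344 CPM. The means were 11156 ± 215 (SD, n = 3) and 10240 ± 393 (SD, n = 3), 8.95% higher in the aged group, and the groups did not overlap. CPM are the deposited read counts divided by library size after adjustment by the trimmed mean of M-values (TMM). All 5 complexes had higher summed levels in every aged library than in any young one. Among single genes this held for 15.5% of all genes tested and 28.5% of those in the shortest length class (described below). The aged sum was 8.39% higher for complex I (2988 ± 130 against 2757 ± 112 CPM, SD, n = 3 each) and 6.16% higher for complex II (917 ± 6.50 against 864 ± 19.7 CPM). It was 11.8% higher for complex III (1166 ± 28.0 against 1043 ± 41.9 CPM), 10.1% higher for complex IV (2093 ± 82.8 against 1901 ± 110 CPM) and 8.63% higher for complex V (3992 ± 20.2 against 3675 ± 121 CPM). No test was made on these sums or between complexes, and the sums were not adjusted for gene length. In bulk tissue a change in the number of cells of a type and a change in RNA per cell cannot be told apart.

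**Figure D1:**
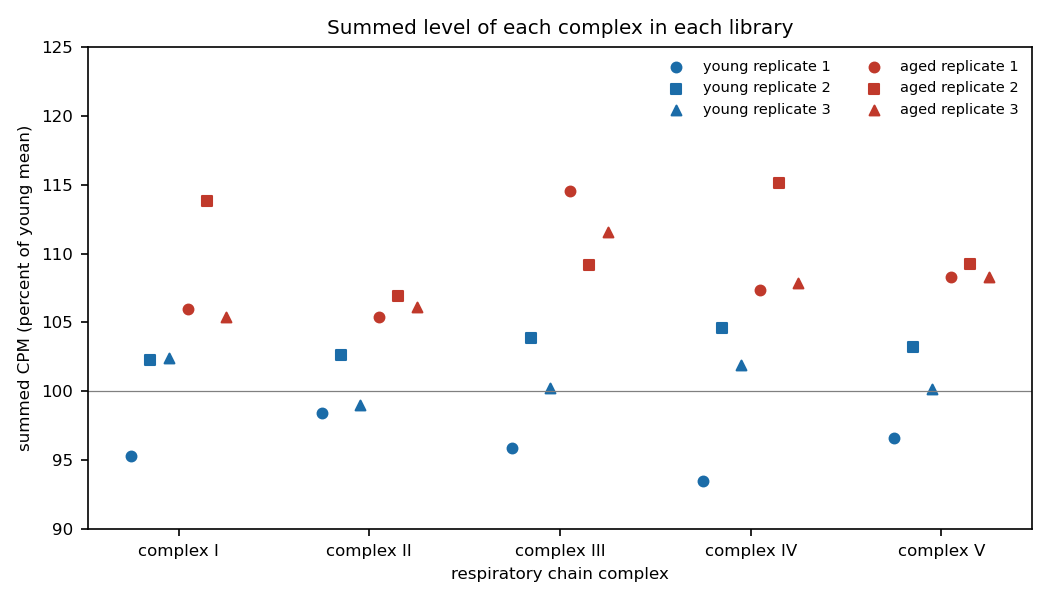
Summed CPM of the members of each complex in each library, as percent of the mean of the 3 young libraries (vertical axis, which does not start at 0); each point is 1 library and the line marks the young mean. All aged points of a complex lie above all its young points.

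Gene by gene, few of these differences passed the test. Of the 88 members, 85 had enough reads to be tested, while Ndufb4c (3 to 6 reads a library), Cox7b2 and Cox8b (0 to 8 reads each) had too few. In edgeR's quasi-likelihood test, with Benjamini-Hochberg adjustment over all 14702 genes tested, 5 of the 85 rose (5.88%) and none fell. Across all genes tested, 3.22% were called higher and 3.64% lower in the aged mice, and among genes as short as most members (described below) 6.87% were called higher. The genes that rose were Ndufb8, Ndufa6 and Ndufa1 of complex I, Uqcrh of complex III and Atp5l of complex V. At an unadjusted p under 0.05, 1 member (Ndufa4l2) was lower, against 13.7% of all genes tested. DESeq2, limma-voom and limma-trend on log2(FPKM + 1) or log2(FPKM + 0.1) called 0 members lower, where 4.92%, 3.44%, 1.99% and 2.06% of all genes were. Higher members numbered 8 in DESeq2 (3.99% of all genes), 5 in limma-voom (2.90%), 11 in limma-trend at either pseudocount (4.19% and 4.23%), and 11 in edgeR scaled by total counts alone (4.26%). The direction was shared more widely than the calls: 73 of 85 members (85.9%) had a log2 fold change above 0, against 49.2% of all genes tested. Their median was 0.12 and that of all genes -0.003. In 42 members (49.4%) every aged library lay above every young one, which held for 15.5% of all genes tested, and in 1 member every aged library lay below, against 16.2%. At an unadjusted p under 0.05, 32 members (37.6%) were higher, against 12.6% of all genes tested. By complex the median log2 fold change was 0.12 for I, 0.10 for II, 0.15 for III, 0.16 for IV and 0.09 for V.

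**Figure D2:**
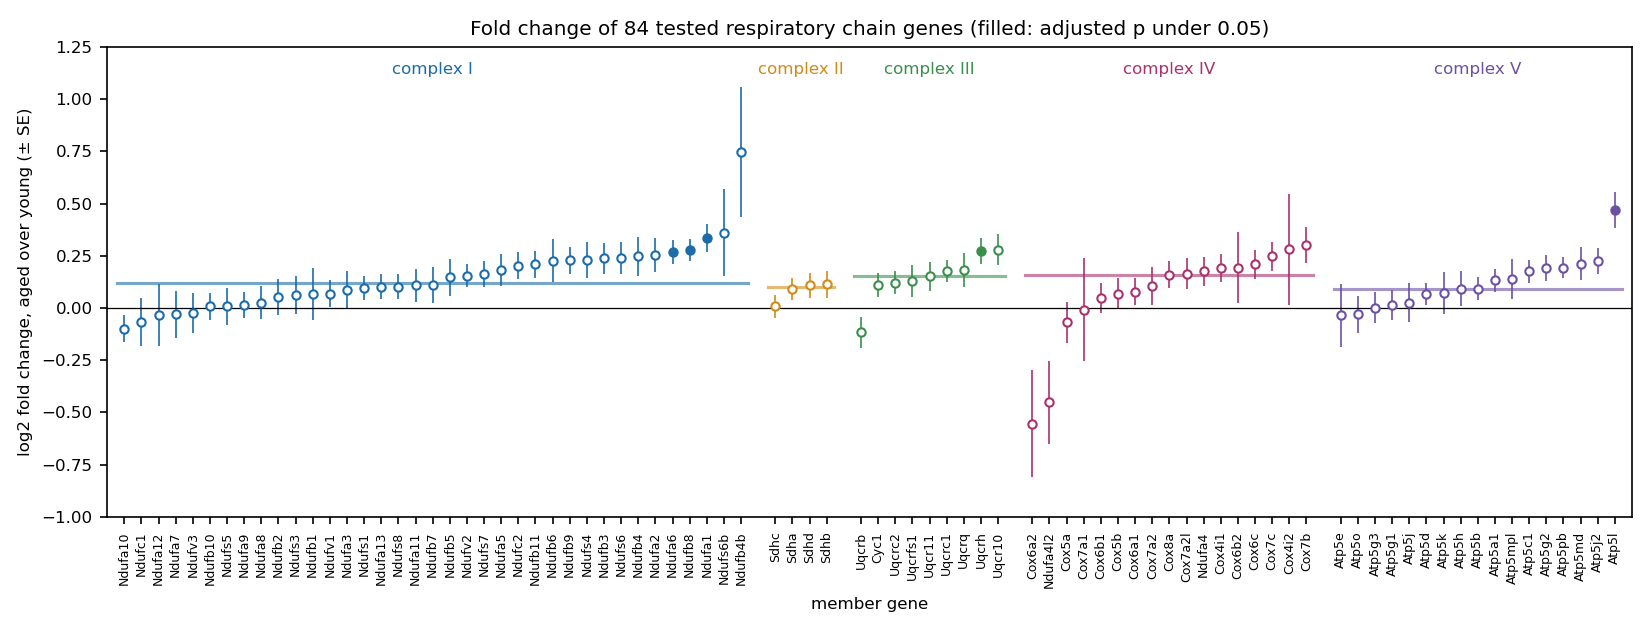
Log2 fold change (aged over young, edgeR) of 84 of the 85 tested members, by complex; points are genes, bars their standard errors, horizontal lines the median of each complex, and filled points the 5 genes with an adjusted p under 0.05. Most points lie above 0, and members at or below 0 occur in complexes I, III, IV and V.

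These genes are short, and in these libraries short genes as a whole lay higher in the aged mice. The length recovered from the deposited counts and FPKM (fragments scaled to gene length and library size) had a median of 0.761 kb over the members (0.320 to 3.15 kb) and of 3.69 kb over all genes tested. When the tested genes were put in 10 classes of equal size by length, 65 of the 85 members fell in the shortest, 0.206 to 1.43 kb. That class of 1471 genes had a median log2 fold change of 0.11, the longest class one of -0.12. Of the genes in the shortest class 6.87% were called higher, 23.7% were higher at an unadjusted p under 0.05, 73.1% had a log2 fold change above 0, and 28.5% had no overlap with the aged group above. The 65 members in that class had a median of 0.14, and 36 of them lay above the class median. In the next class the 13 members had a median of 0.11 (class median 0.06) and 10 lay above it. All 3 members in the third class and all 3 in the fourth lay above their class medians, and Cox5a, the 1 member in the fifth, lay below. In all, 52 members lay above and 33 below the median of genes of like length, with a median difference of 0.05. The slope of log2 expression on length, per doubling and relative to the mean of the libraries, was -0.02, -0.05 and -0.02 in the aged libraries and 0.04, 0.04 and 0.01 in the young ones.

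**Figure D3:**
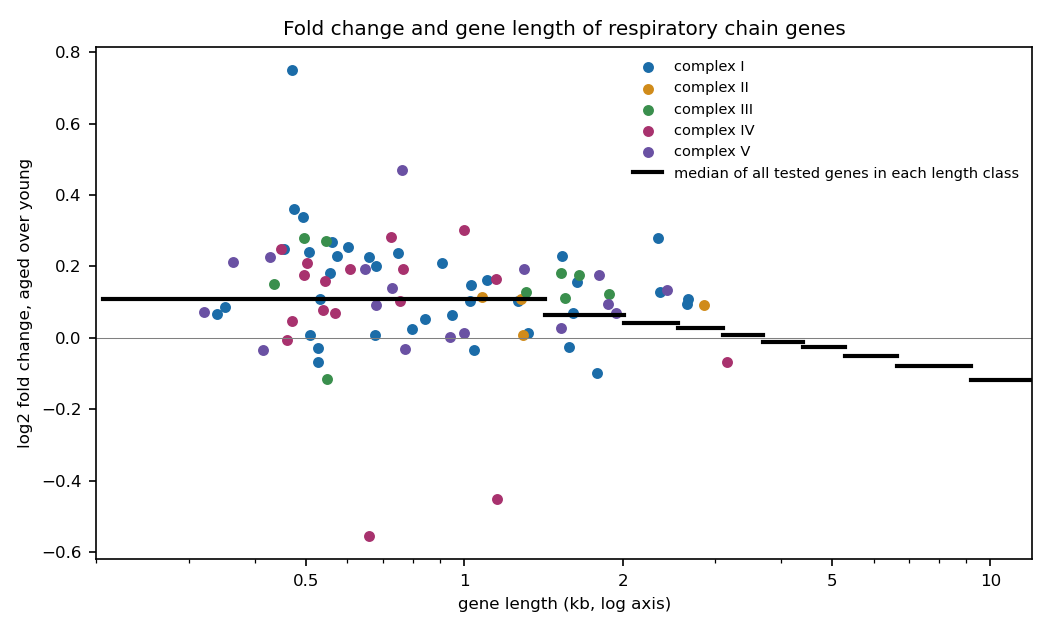
Log2 fold change (aged over young) against gene length recovered from counts and FPKM (log axis, kb), for the 85 tested members (points, coloured by complex), with the median of all tested genes in each of 10 length classes as black lines; the axis ends before the longest class does. Class medians run from 0.11 in the shortest class to -0.12 in the longest, and most members sit in the shortest.

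With the trend of each library on length taken out before the edgeR test, the members' median log2 fold change was 0.025. Of the 85 members, 52 (61.2%) lay above 0, against 50.1% of all genes tested in the same fit. In that fit 1 member rose, Ndufb8, and 1 fell, Uqcrb (-0.27, adjusted p = 0.0477), where 2.80% of all genes tested were called higher and 2.34% lower. By complex the medians were then 0.053 for I, 0.018 for II, 0.067 for III, 0.0045 for IV and 0.016 for V. The recovered length is the one behind the deposited FPKM, and for 20 of the 82 members with an annotation it was over 1.5 times the median coding transcript. For Ndufb8 it was 2.33 kb where the annotated transcript is 0.55 kb. With the annotated transcript length in its place, an alternative chosen after seeing the data, the members' median was 0.07 and 63 of 85 lay above 0. Then 3 members rose, Ndufa1, Ndufb8 and Atp5l, and none fell, where 3.06% of all genes tested were called higher and 2.77% lower.

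Levels per length show which subunit genes were most abundant. By mean FPKM over the 6 libraries, Atp5b (605), the catalytic beta subunit of ATP synthase, was highest, followed by Cox4i1 (572), Cox6b1 (436), Atp5a1 (395) and Cox8a (385). The highest of complex I was Ndufa3 (216), of complex II Sdha (209) and of complex III Uqcrh (218). The lowest tested members were Ndufb4b (1.53), Cox4i2 (1.62), Ndufa4l2 (2.20), Cox7a1 (2.56), Cox6a2 (4.32), Ndufs6b (5.49) and Cox6b2 (5.50), all muscle, lung, testis or other restricted isoforms or near copies of another gene. The other 78 tested members had at least 26.5 FPKM (Ndufs4), and each had at least 306 reads in every library (Ndufc1 had the fewest).

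**Figure D4:**
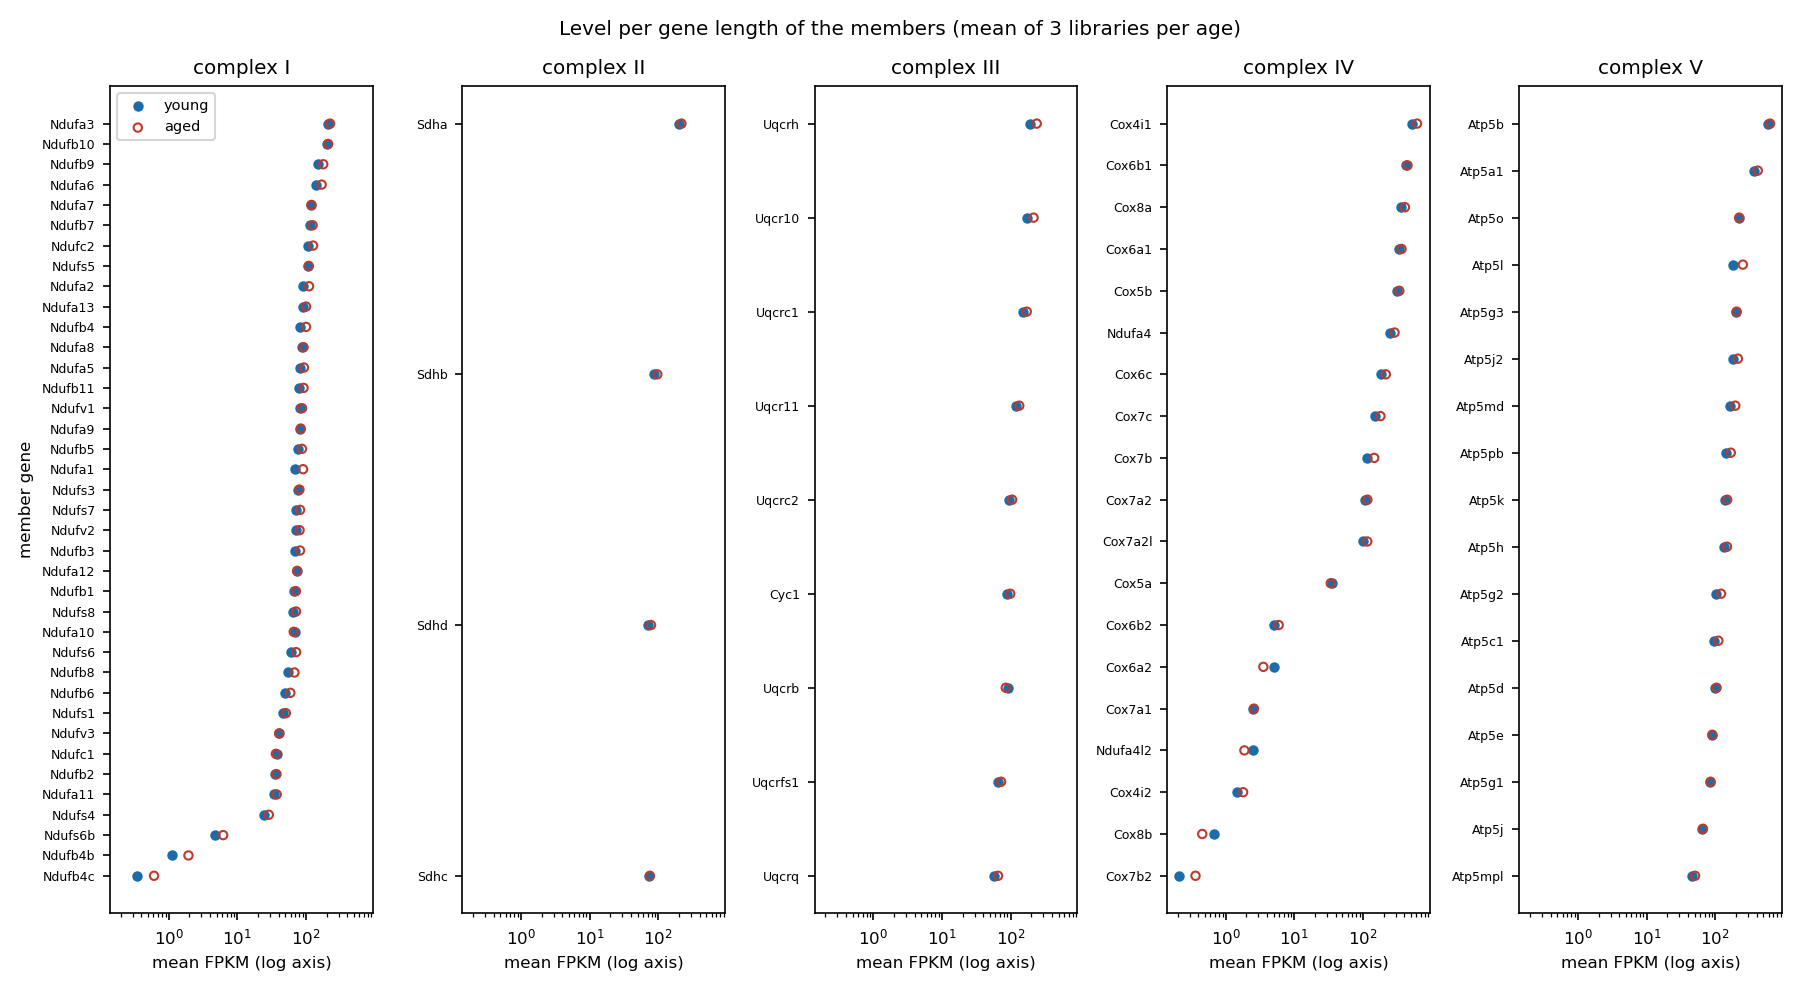
Mean FPKM of the members (1 is not drawn) over the 3 young (filled) and the 3 aged (open) libraries, on a log axis, by complex. The 10 restricted isoforms and gene copies form a separate low set of under 10 FPKM, and the 2 ages lie close together for most of the others.

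In complex I, 3 of 38 tested members rose (7.89%) and none fell in edgeR, against 3.22% and 3.64% of all genes tested. At an unadjusted p under 0.05, 16 were higher (12.6% of all genes tested). A log2 fold change above 0 was found in 33 (86.8%, against 49.2%). In the shortest length class 6.87% were called higher, 23.7% were higher at an unadjusted p under 0.05 and 73.1% lay above 0. Ndufb8, an accessory subunit of the membrane arm, stood at 155, 160 and 157 CPM in the aged mice and at 128, 131 and 130 CPM in the young. Its groups lay far apart for their spread, 157 ± 2.72 against 130 ± 1.94 CPM (SD, n = 3), with a log2 fold change of 0.28 ± 0.05 (SE) and an adjusted p of 0.0187 in edgeR. It remained called with the length trend removed (0.24, adjusted p = 0.0315). In the annotation it overlaps a gene on the same strand (Gm20538), so some of its reads could be shared. Ndufa6, an accessory subunit of the matrix arm, had 95.7, 92.5 and 94.6 CPM in the aged mice and 75.6, 78.7 and 80.3 CPM in the young. All aged values lay above the young ones (log2 fold change 0.27 ± 0.06 SE, adjusted p = 0.0270), while with the length trend removed the value was 0.11 with an adjusted p of 0.334. Ndufa1, a small membrane-arm subunit encoded on the X chromosome, had 43.7, 45.6 and 44.3 CPM in the aged and 33.8, 36.0 and 35.9 CPM in the young mice. The log2 fold change was 0.34 ± 0.07 (SE, adjusted p = 0.0213), and 0.17 with an adjusted p of 0.166 when the length trend was removed.

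By role, all 3 genes called in complex I encode accessory subunits, and no test was made between modules. Most members of the complex do so: of the 38 tested, 9 are accessory subunits of the matrix arm and 20 of the membrane arm. The 3 core subunits of the NADH-binding module (Ndufs1, Ndufv1 and Ndufv2) had a median log2 fold change of 0.10, with none called. These carry the flavin and iron-sulfur clusters through which electrons enter. Of the ubiquinone module, Ndufs3, Ndufs7 and Ndufs8 had log2 fold changes of 0.06, 0.16 and 0.10 and were not called. Of the 9 accessory subunits of the matrix arm 1 rose (median 0.18). Of the 20 accessory subunits of the membrane arm 2 rose (median 0.11). With the length trend removed, these medians were 0.025 and 0.029, and that of the NADH-module core was 0.064. The shortest length class held 7 of the 9, 17 of the 20 and 0 of the 3 NADH-module core genes. Ndufs4, which helps to hold the NADH module in place, had 44.4, 45.0 and 42.0 CPM in the aged and 33.1, 40.4 and 38.7 CPM in the young mice (0.23, adjusted p = 0.129). Ndufa3, the most abundant complex I member per length, overlapped between groups, at 73.0, 86.0 and 75.7 CPM against 65.3, 76.1 and 79.6 CPM (0.09, adjusted p = 0.588). The lowest log2 fold change in the complex was that of Ndufa10, -0.10, at 118, 123 and 112 CPM against 121, 133 and 124 CPM (adjusted p = 0.365). Ndufb4b, Ndufb4c and Ndufs6b are near-identical copies of Ndufb4 and Ndufs6, between which reads may be split, and their values are uncertain. Ndufb4b had 9 to 18 reads a library, at 1.01, 0.675 and 1.04 CPM in the aged and 0.586, 0.517 and 0.501 CPM in the young mice, and did not pass (adjusted p = 0.164).

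Complex II, succinate dehydrogenase, which also works in the tricarboxylic acid cycle, had no call. All 4 of its members had log2 fold changes above 0, which held for 49.2% of all genes tested. In the shortest length class, which held 3 of the 4, it was 73.1%. With the length trend removed, 3 of the 4 lay above 0, against 50.1% of all genes tested, and their median was 0.018. None was called by edgeR, DESeq2, limma-voom or limma-trend, and 0 passed at an unadjusted p under 0.05. Sdha, the flavoprotein that oxidises succinate and the most abundant of them per length, had 611, 616 and 624 CPM in the aged mice and 575, 592 and 570 CPM in the young. The groups did not overlap, and the log2 fold change of 0.09 ± 0.05 (SE) had an adjusted p of 0.294. Sdhd, a membrane anchor, had 101, 102 and 96.8 CPM against 90.3, 96.2 and 91.5 CPM (0.11, adjusted p = 0.268). Sdhb, the iron-sulfur subunit, overlapped between groups at 101, 110 and 99.9 CPM against 91.4, 100.1 and 95.6 CPM (0.11, adjusted p = 0.300). Sdhc, the other anchor, was nearly level, at 98.0, 96.4 and 96.5 CPM against 93.4, 97.8 and 98.1 CPM (0.01, adjusted p = 0.942).

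In complex III, 1 of 9 members rose (11.1%) and 8 had a log2 fold change above 0 (88.9%). These shares were 3.22% and 49.2% over all genes tested, and 6.87% and 73.1% in the shortest length class. Uqcrh, the acidic hinge protein that assists the docking of cytochrome c, had 129, 128 and 134 CPM in the aged mice and 101, 114 and 108 CPM in the young. Its means were 130 ± 3.29 and 108 ± 6.18 CPM (SD, n = 3), a log2 fold change of 0.27 ± 0.06 (SE, adjusted p = 0.0324 in edgeR), and 0.12 with an adjusted p of 0.316 when the length trend was removed. A pseudogene (Gm12854) lies on the opposite strand of Uqcrh in the annotation, and the strand setting of the counting is not given in the sources used here. Uqcr10, a small accessory subunit, lay just outside the threshold, at 115, 99.6 and 106 CPM against 82.2, 92.5 and 88.7 CPM (0.28 ± 0.07 SE, adjusted p = 0.0502). Uqcrc1, a core protein on the matrix side, had 283, 274 and 290 CPM against 246, 255 and 249 CPM, with no overlap (0.18, adjusted p = 0.0719). The catalytic members Cyc1 (cytochrome c1) and Uqcrfs1 (the Rieske iron-sulfur protein) had log2 fold changes of 0.11 and 0.13 and were not called. The least abundant per length, Uqcrq, overlapped between groups at 109, 93.4 and 95.1 CPM against 81.3, 94.6 and 86.7 CPM (adjusted p = 0.194). Uqcrb, which lies near the ubiquinone site, was the only member of the complex with a value below 0, at 47.6, 48.0 and 43.0 CPM against 47.4, 49.9 and 53.0 CPM (-0.12, adjusted p = 0.360).

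**Figure D5:**
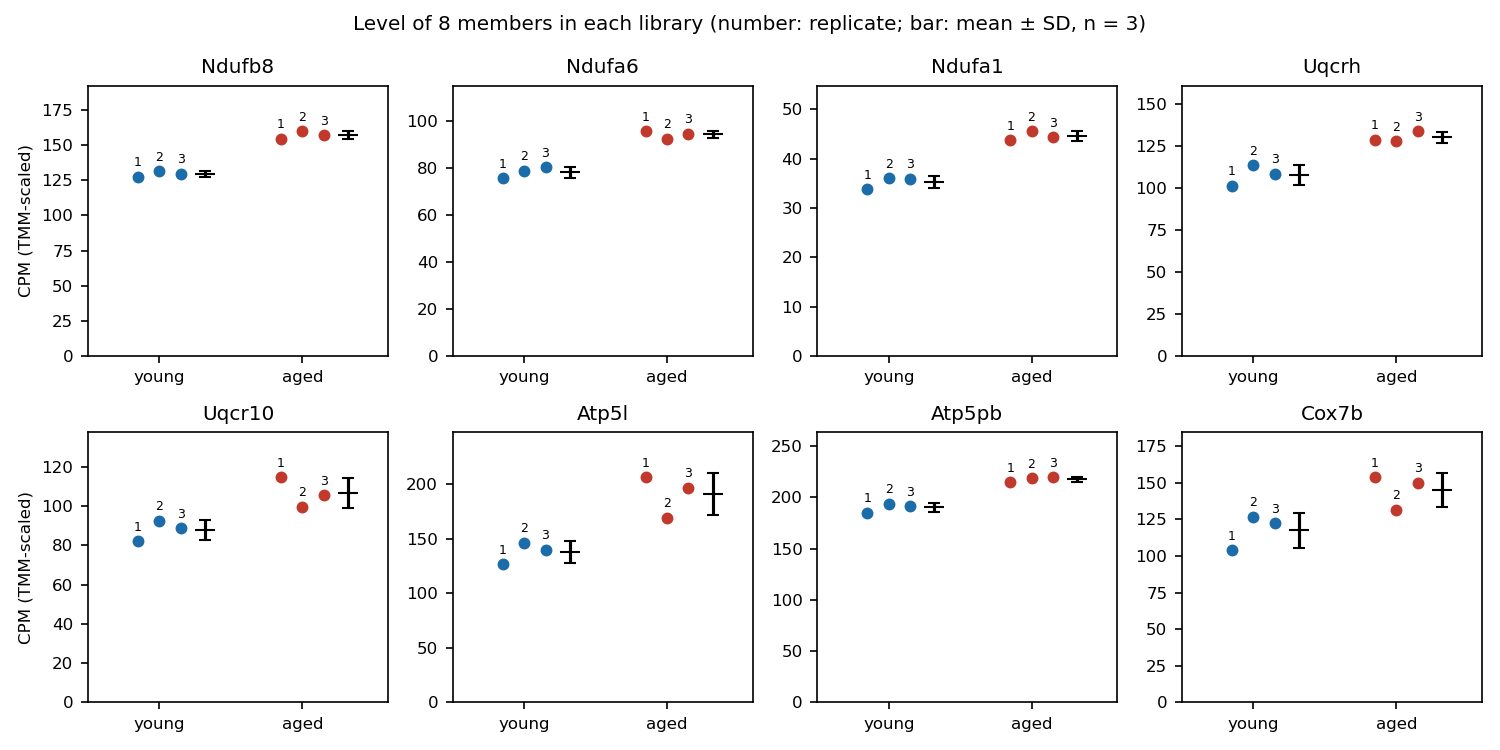
CPM in each of the 6 libraries (3 aged, 3 young) for the 5 members that were called and for Uqcr10, Atp5pb and Cox7b, which lay outside the threshold; points are libraries, numbered by replicate, and bars the group mean ± SD (n = 3). In each panel every aged library lies above every young one.

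Complex IV, cytochrome c oxidase, had a median log2 fold change of 0.16 over 17 tested members and no call in edgeR. This median, the highest of the 5 complexes, was the lowest of them with the length trend removed (0.0045), and was 0.064 without aged 2. At an unadjusted p under 0.05, 6 members were higher and 1 lower, against 12.6% and 13.7% of all genes tested. In the shortest length class 23.7% were higher at that p. DESeq2 called 1 member higher (Cox7b, against 3.99% of all genes), limma-trend 1 (Cox7c, against 4.19% and 4.23%) and limma-voom 0 (2.90%). Its nuclear subunits surround a core encoded by mitochondrial DNA, and several come as a broadly expressed form and a form restricted to some tissues. The 11 broadly expressed subunits had a median of 0.16, the 5 tested restricted isoforms one of -0.01. Cox7c had 86.4, 76.3 and 77.8 CPM in the aged and 64.9, 66.7 and 71.0 CPM in the young mice (0.25, adjusted p = 0.0642). Cox7b, encoded on the X chromosome, had 154, 132 and 150 CPM against 104, 127 and 122 CPM (0.30 ± 0.09 SE, adjusted p = 0.0682). Neither overlapped between groups. Cox4i1, which binds ATP and takes part in assembly and the most abundant member of the complex, had 464, 492 and 442 CPM against 384, 429 and 411 CPM (0.19, adjusted p = 0.101), again without overlap. Cox5a, in contrast, was at 97.6, 123 and 97.3 CPM against 108, 105 and 121 CPM (-0.07, adjusted p = 0.707).

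The restricted isoforms of complex IV were minor at both ages. Cox4i2, the isoform known from lung, made up 0.288 ± 0.0610% (SD, n = 3) of the summed FPKM of the Cox4i pair in the aged mice and 0.275 ± 0.0117% in the young. It had 1.23, 1.66 and 0.981 CPM in the aged and 1.06, 1.09 and 1.06 CPM in the young mice, with overlap (adjusted p = 0.546). In every library it was thus a trace beside Cox4i1. The share of Cox6b2, known from testis, was 1.32 ± 0.227% and 1.19 ± 0.158% of its pair with Cox6b1. Cox7a1, a form of heart and muscle, held 2.19 ± 0.455% and 2.37 ± 0.453% of its pair with Cox7a2. These 3 shares differed between the ages by less than the SD of the aged group. Cox6a2, the muscle partner of Cox6a1, held 0.957 ± 0.112% in the aged and 1.47 ± 0.397% in the young mice. It had 1.91, 2.54 and 2.48 CPM in the aged and 3.11, 4.65 and 2.45 CPM in the young mice (-0.55 ± 0.26 SE, adjusted p = 0.203). Ndufa4l2, a hypoxia-inducible relative of Ndufa4, held 0.642 ± 0.103% and 0.995 ± 0.133%. It was the only member with every aged library below every young one, at 2.13, 2.49 and 1.79 CPM against 2.70, 2.76 and 3.34 CPM (-0.45 ± 0.20 SE, adjusted p = 0.186). It is known in the brain as a pericyte-enriched gene. The 3 pericyte markers examined summed to 84.4 to 108 CPM in the aged and 124 to 143 CPM in the young mice, with 1 of 3 called lower; their part in its value was not tested. The broad partners Cox6a1, Cox6b1 and Cox7a2 overlapped between groups, with log2 fold changes of 0.08, 0.05 and 0.10 (adjusted p = 0.487, 0.722 and 0.514). Ndufa4 did not, at 140, 144 and 143 CPM against 115, 137 and 127 CPM (0.18, adjusted p = 0.154). Cox8b, at 0 to 8 reads a library, was too low for a comparison with Cox8a (222, 224 and 219 CPM against 182, 209 and 204 CPM).

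In complex V, 1 of 17 members rose (5.88%) and 15 had a log2 fold change above 0 (88.2%). These shares were 3.22% and 49.2% over all genes tested, and 6.87% and 73.1% in the shortest length class. Atp5l, the g subunit of the membrane part that supports dimers of the enzyme, had the highest log2 fold change of all called members. It had 206, 169 and 197 CPM in the aged mice and 127, 147 and 140 CPM in the young, means of 191 ± 19.3 and 138 ± 10.2 CPM (SD, n = 3). The groups did not overlap, although aged 2 and young 2 came close, and the log2 fold change was 0.47 ± 0.09 (SE, adjusted p = 0.0169 in edgeR). With the length trend removed it was 0.35 with an adjusted p of 0.0631. An annotated gene (Gm30934) overlaps Atp5l on the opposite strand. Atp5pb, the b subunit of the peripheral stalk, lay just outside the threshold at 215, 218 and 219 CPM against 185, 194 and 191 CPM (0.19 ± 0.05 SE, adjusted p = 0.0519). The 5 small accessory subunits of the membrane part (Atp5l, Atp5j2, Atp5md, Atp5mpl and Atp5k) had a median log2 fold change of 0.21, with 1 called. The 2 catalytic head subunits had a median of 0.11 and the 3 central stalk subunits 0.07. It was 0.06 for the 4 peripheral stalk subunits and 0.01 for the 3 genes for the proton-carrying c ring. With the length trend removed, the medians were 0.023 for the membrane accessory subunits and 0.067 for the head. They were then 0.016 for the central stalk, -0.046 for the peripheral stalk and -0.093 for the c ring. All 5 membrane accessory genes fell in the shortest length class. Atp5b, the most abundant member of all, had 1189, 1143 and 1187 CPM against 1089, 1132 and 1077 CPM (0.09, adjusted p = 0.300), its groups separate by a small margin. Atp5mpl, the least abundant in the complex per length, had 33.5, 40.3 and 36.2 CPM against 30.0, 36.2 and 33.7 CPM, with overlap (adjusted p = 0.388). Atpif1, the inhibitor of ATP hydrolysis by this enzyme and not a member, had 100.3, 99.2 and 102 CPM against 84.5, 94.8 and 91.5 CPM (0.15 ± 0.06 SE, adjusted p = 0.155).

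Each call depended on single libraries. Without aged 1, aged 3 or young 1, edgeR called 0 of the members higher, and without young 3 it called 1 (Atp5l, adjusted p = 0.0496). Without young 2 it called 5 and without aged 2 it called 11. The share of all genes called higher moved too: it was 1.0%, 0.640% and 0.957% without aged 1, aged 3 and young 1, 1.22% without young 3, 2.09% without young 2 and 6.08% without aged 2. For Ndufb8 the adjusted p ran from 0.0163 to 0.0797 over these 6 fits and for Uqcrh from 0.0268 to 0.129. Over 19 alternative fits, Ndufb8 and Atp5l were called in 15, and Ndufa6 and Uqcrh in 13. The X-linked Ndufa1, absent from the fit without sex-linked genes, was called in 13 of 18.

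The members did not keep 1 order of libraries. Aged 2 had the highest value of the 6 libraries in 48 of the 85 tested members, and young 1 the lowest in 57. Aged 2 was nevertheless the lowest aged library in 21 members, among them Atp5l, Cox7b and Uqcr10. In Atp5e, the epsilon subunit of ATP synthase, aged 2 stood apart at 46.8 CPM beside 32.5 and 32.1 CPM in the other aged mice. Ndufa12, an accessory subunit of complex I, ranged from 59.4 to 92.6 CPM within the aged group alone. Aged 3 had the highest value of the 6 in 13 members and the lowest in 13.

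The 3 members on the X chromosome were all higher at an unadjusted p under 0.05 and 1 was called. Beside Ndufa1 and Cox7b, given above, this is Ndufb11, a membrane-arm subunit of complex I, at 84.5, 83.3 and 81.9 CPM against 66.8, 76.5 and 72.8 CPM (0.21, adjusted p = 0.0859). Over the 529 X-linked genes tested, the median log2 fold change was 0.005, 4.35% were called higher and 70 were higher at an unadjusted p under 0.05. All 3 members fell in the shortest length class, where 6.87% were called higher and 23.7% were higher at that unadjusted p. With the trend on recovered length removed, 0 of the 3 were called, and with annotated transcript length 1 was (Ndufa1). Because the groups also differ in their Y-linked counts, whether the X-linked values follow age or sex cannot be told apart. The same holds for the members on other chromosomes.

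Genes that build, feed or regulate the chain were not called. Of 101 genes in 7 lists, 99 were tested and edgeR called 0 in either direction. Over all genes tested, 3.22% were called higher and 3.64% lower. At an unadjusted p under 0.05, 7 were higher and 4 lower, against 12.6% and 13.7% of all genes tested. DESeq2 and limma-voom called 0, where 3.99% and 2.90% of all genes were called higher and 4.92% and 3.44% lower. On log2(FPKM + 1), limma-trend called 1 higher, against 4.19% of all genes. The median log2 fold change was 0.11 for 15 assembly factors of complex I, -0.02 for 10 of complexes II and III, -0.03 for 24 of complex IV and 0.02 for 6 of complex V. It was 0.01 for 11 mobile carriers and transporters, 0.04 for 15 transcriptional regulators and 0.06 for 18 genes of the tricarboxylic acid cycle. The related genes were longer than the members, with a median of 2.33 kb against 0.761 kb. With the length trend removed, their median log2 fold change was 0.006 and that of the members 0.025. By list it then ran from -0.11 (assembly factors of complexes II and III) to 0.067 (transcriptional regulators). Slc25a4, the ADP/ATP carrier that exports the ATP made by complex V, had 635 ± 10.3 CPM in the aged and 574 ± 15.6 CPM in the young mice (SD, n = 3), without overlap (0.15, adjusted p = 0.119). Ndufaf7, a methyltransferase needed to build complex I, had 36.4 ± 0.343 against 31.9 ± 1.30 CPM (0.19, adjusted p = 0.116). Taco1, the translational activator of the mitochondrial Cox1 message, had 12.4 ± 1.53 against 15.6 ± 0.908 CPM (-0.34, adjusted p = 0.0927). Yy1 had 85.3 ± 1.56 against 75.2 ± 5.77 CPM (0.18, adjusted p = 0.133). In the tricarboxylic acid cycle, Ogdh, part of the 2-oxoglutarate dehydrogenase complex, had 418 ± 16.3 against 487 ± 37.7 CPM (-0.22, adjusted p = 0.0781). Suclg1, a subunit of succinyl-CoA ligase, had 102 ± 2.81 against 89.8 ± 3.80 CPM (0.19, adjusted p = 0.0865). The genes named so far and the following make up the 2 with the smallest adjusted p in each list; the latter had log2 fold changes of 0.16 (Ndufaf5), -0.26 (Lyrm7), 0.14 (Uqcc2), 0.33 (Fastkd5), -0.21 (Fmc1), 0.09 (Tmem70), 0.13 (Cycs) and -0.42 (Esrrb). Their adjusted p ran from 0.169 (Fastkd5) to 0.610 (Tmem70). Ndufab1, the complex I subunit gene counted with the mobile carriers, overlapped between groups (-0.09, adjusted p = 0.680 in edgeR).

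For comparison, values of other housekeeping sets are given beside those of the members. Over all genes tested, 3.22% were called higher, and 2.80% with the length trend removed, while the shortest length class had 6.87% without that removal. Of 81 tested genes for cytosolic ribosomal proteins, with a median length of 0.795 kb, 38 rose (46.9%) and the median log2 fold change was 0.28. With the length trend removed, 18 were called higher and their median was 0.16. Of 75 genes for mitochondrial ribosomal proteins, with a median length of 1.41 kb, 3 rose and the median was 0.05, and with the length trend removed 2 were called higher and the median was -0.007. The difference between these sets and the members was not tested.

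The 6 libraries held 17208291 to 18884403 counted reads, of which 167321 to 219642 fell on the members. Markers of several cell types also moved with the groups. Summed over 6 astrocyte markers, the aged mice had 2516, 1754 and 2551 CPM and the young mice 2928, 3147 and 2874 CPM (2 of 6 called lower). The low aged library, aged 2, is the one with the highest value in 48 of the 85 tested members. It also had the lowest slope of expression on length, -0.05, against -0.02 in aged 1 and aged 3. The sum of 4 endothelial markers ran from 114 to 126 CPM in the aged and 130 to 163 CPM in the young mice (2 of 4 lower), and that of 3 markers of oligodendrocyte precursors from 226 to 273 and 284 to 339 CPM (none called), again without overlap. For 6 neuronal markers the ranges were 4091 to 4388 and 4366 to 5106 and for 6 oligodendrocyte markers 6756 to 7026 and 6108 to 7771, each with overlap and none called. The sums of 5 microglia markers, 153 to 177 and 172 to 181 CPM, overlapped (1 called lower). So did those of 3 ependyma and tanycyte markers, 35.0 to 40.7 and 36.0 to 40.9 CPM (1 called higher). No marker was at 0 in all libraries, and 8 hypothalamic markers summed to 1115 to 1222 and 1179 to 1341 CPM. The 3 pituitary markers summed to 223 CPM in young 3 and to 0.729 to 13.8 CPM in the other 5 libraries. The part of these cell types in the members' values was not tested.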

How the data were processed

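RNA from 6 hypothalami was sequenced from stranded mRNA libraries, per the labels' protocols. The authors deposited 2 tables for the same 6 libraries, read counts and FPKM per gene. Per the submitters' processing notes, the tools were HISAT2, HTSeq, Cufflinks, Trimmomatic and DESeq and the build was GRCm39, with no versions. No source used here gives the strand setting or annotation release.

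The deposited counts were tested with edgeR 4.0.16 (R 4.3.3): filterByExpr (minimum count 10, minimum total 15), TMM factors, quasi-likelihood test, Benjamini-Hochberg adjustment over 14702 genes, threshold 0.05. These genes hold 99.9% of the counts. Scripts were tested on simulated data. The members and gene lists were chosen with earlier results of these data known. Length was recovered from counts, FPKM and library totals. Its trend was taken out as a loess offset (span 0.4) per library. Alternatives used DESeq2 1.42.0, limma 3.58.1 on voom weights or on log2(FPKM + 1) and log2(FPKM + 0.1), other scalings and filters, and each library left out. Annotated transcript lengths came from GENCODE M21 (GRCm38), used by symbol only.

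Values per library are given for members past the threshold and, in each complex, the 2 with the smallest adjusted p and the highest and lowest mean FPKM. X-linked members, restricted isoforms with their partners, Atpif1, Ndufab1 and the 2 genes of each related list with the smallest adjusted p are also named. Some further members are named for their role and were chosen after their values were seen. Same-numbered mice did not deviate together, so numbers were not treated as pairs. The 7 tested members under 10 FPKM had the fewest reads, 9 (Ndufb4b) to 81 (Cox6a2) a library. No 2 libraries of a group agreed within sampling noise. Values of 1 member of complex I are not reported here, and it is included in the counts, sums and medians.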

Additional observations from a re-analysis of the deposited data

How the results depend on the processing

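The count of members called higher, 5, was 11 with total counts alone, 8 with DESeq2, 11 with limma-trend at either pseudocount, 1 with the length trend removed and 3 with annotated transcript length. It was 20 at an adjusted p under 0.1 and 0 under 0.01. Members called lower numbered 0, and 1 with the length trend removed. Over all genes, 474 higher became 1017 and 90 at those thresholds, and 535 lower became 1170 and 54, 293 and 303 with limma-trend (pseudocounts 1 and 0.1) and 344 with the length trend removed. Among related genes, 1 was called higher with limma-trend on log2(FPKM + 1), 1 with annotated transcript length and 1 under 0.1, and 3 were called lower under 0.1. With the length trend removed, the median log2 fold change was 0.025 for all members, 0.018 for complex II, 0.067 for complex III and 0.0045 for complex IV. The summed level of complex II, aged over young, was 0.09 (log2), and 0.12 with total counts alone.

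Leaving out 1 library at a time gave 0 to 11 members higher and 0 lower, 95 to 901 genes higher and 55 to 732 lower, and 0 to 2 related genes lower. Members with a log2 fold change above 0 numbered 64 to 79. The medians ran from 0.09 to 0.15 for all members, 0.09 to 0.16 for complex I, 0.09 to 0.13 for II, 0.12 to 0.20 for III, 0.064 to 0.18 for IV and 0.08 to 0.15 for V. Summed levels (log2) ran from 0.09 to 0.15, and by complex from 0.08 to 0.14, 0.07 to 0.11, 0.13 to 0.19, 0.09 to 0.17 and 0.10 to 0.14.

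With the length trend removed, the log2 fold change reversed for Ndufa3 (-0.11), Sdhc (-0.076), Cox6a1 (-0.083), Cox6b1 (-0.12) and Cox7a2 (-0.025), and with annotated length for Sdhc (-0.047) and Cox6b1 (-0.029). None of these was called. Sdhc ran from -0.0056 to 0.030 over the fits without 1 library. Cox7a1, at -0.007, was 0.021 with total counts alone, 0.0014 with upper-quartile factors, 0.00072 without a filter, 0.013 and 0.016 with limma-trend, and -0.14 to 0.080 without 1 library. The causes were not tested.

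With the replicate number as a block, edgeR called 5 members higher and 0 lower, the same 5 genes, and 1 related gene lower (Ogdh), against 523 higher and 667 lower over all genes. The deviations of same-numbered mice correlated at 0.10, 0.04 and -0.14, and those of differently numbered mice at -0.12 to 0.09. This check showed no pairing, but with 3 mice a group it cannot exclude one. The annotated-length fit and a fit without X- and Y-linked genes were chosen after seeing the data.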
